A study of Mus musculus with 6 samples.

Results

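Ngfr, Pgr, Greb1, Ptpn5 and Esr1, 5 of the 31053 genes counted in the wound libraries, were followed through the wound fibroblasts of mice. Ngfr, Pgr, Greb1 and Ptpn5 were selected on their higher level in wound fibroblasts after treatment with Ndrg2-KO dendritic cells (DCs) than after control DCs, and Esr1 was added to them by the rule. The difference between these 2 libraries therefore chose the members, and it is given here as a description. The study treated splinted full-thickness excisional wounds of 6-week-old mice, female and male per the methods, with pullulan-collagen hydrogels and took the tissue on day 10. The labels give no strain for these wounds, and the methods tie them to the healing curves of wild-type C57BL/6J mice. The hydrogels carried bone marrow-derived DCs nucleofected with Cas9 and guides against Ndrg2 (Ndrg2-KO DC wounds), control DCs, or no cells (blank hydrogel wounds). The labels call the control DCs untreated, whereas the methods describe the same nucleofection with 3 non-targeting guides. Each group had 5 mice and gave 1 droplet library, in which the mice cannot be told apart, so no difference between groups has a replicate check. The knockout was made in the DCs and not in the wound cells, and a library may hold host cells and transferred DCs. The design text of the series speaks of sorted GFP+ cells from parabiotic mice, which neither the labels of these samples nor the methods for the wounds describe, so the origin of the cells was not settled.

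Esr1 encodes oestrogen receptor alpha, a nuclear receptor that binds DNA when its hormone is present. Pgr, the progesterone receptor, and Greb1, a cofactor of that receptor, are textbook targets of oestrogen receptor alpha in uterus and breast. Ngfr encodes p75NTR, the low-affinity receptor that all neurotrophins share, known in skin from Schwann cells and nerves. Ptpn5 encodes STEP, a tyrosine phosphatase described mainly in neurons, where it acts on ERK, p38, Fyn and glutamate receptors.

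In GRCm38 (GENCODE M21), Ngfr lies on chr11:95568818-95587735, Pgr on chr9:8899833-8968611, Greb1 on chr12:16670615-16800886, Ptpn5 on chr7:47077795-47133684 and Esr1 on chr10:4611593-5005614. Each is a protein-coding gene on a chromosome of its own. The RefSeq promoter windows (GRCm38.p6, 250 bases before to 50 after a start site) were searched on both strands for the palindrome of the oestrogen response element, GGTCANNNTGACC, and for its arms alone, GGTCA or TGACC. None of the members' 8 windows held the palindrome, which 0.0700% of all 32851 windows held. An arm was present in both windows of Greb1 and in 1 of 2 windows of Esr1, and 40.5% of all windows held one. Arms overlap the palindrome where it is present, and a match is a run of letters and not a site. The bases before the start sites of Greb1 and Pgr are shown because these members are the textbook targets of the receptor, with the arms in capitals. The stretches are chr12:16800887-16801136 (minus strand) for the upstream Greb1 start, chr12:16757242-16757489 (minus strand) for the Greb1 start inside the gene, and chr9:8899583-8899832 (plus strand) for Pgr.
Greb1 upstream start: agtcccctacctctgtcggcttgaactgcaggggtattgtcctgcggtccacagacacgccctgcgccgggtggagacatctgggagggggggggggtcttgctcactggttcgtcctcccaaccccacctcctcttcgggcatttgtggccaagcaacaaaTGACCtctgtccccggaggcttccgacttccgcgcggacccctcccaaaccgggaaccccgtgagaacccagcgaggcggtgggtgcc
Greb1 inner start: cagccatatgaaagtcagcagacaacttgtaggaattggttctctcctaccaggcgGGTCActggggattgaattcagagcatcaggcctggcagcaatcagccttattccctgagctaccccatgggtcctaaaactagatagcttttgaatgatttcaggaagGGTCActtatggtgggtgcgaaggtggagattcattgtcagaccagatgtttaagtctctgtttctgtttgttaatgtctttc
Pgr: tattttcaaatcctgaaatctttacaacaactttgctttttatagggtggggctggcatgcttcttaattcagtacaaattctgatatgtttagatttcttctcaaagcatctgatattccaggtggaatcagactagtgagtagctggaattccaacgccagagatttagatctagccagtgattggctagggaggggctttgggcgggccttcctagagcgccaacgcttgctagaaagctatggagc

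The upstream Greb1 stretch held 1 arm, 88 bases before the start site. The inner stretch held 2, at 194 and 85 bases before its start site. Pgr held none, and neither did the windows of Ngfr and Ptpn5. The palindrome of the progesterone and glucocorticoid response element, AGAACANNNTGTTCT, was in none of the 8 windows and in 0.00913% of all windows.

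After filtering on at least 300 genes, under 100000 unique molecular identifiers (UMIs) and under 10% mitochondrial UMIs, 11032 of 14276 barcodes were kept: 1948 from control DC wounds, 5681 from Ndrg2-KO DC wounds and 3403 from blank hydrogel wounds, with median UMIs per cell between 4415 and 10795. Pairs of libraries shared 2 to 3 kept barcodes. Ndrg2 itself had 6.10 CPM (UMIs scaled to a total of 1000000) in the control DC library, 3.33 in the Ndrg2-KO DC library and 3.30 in the blank hydrogel library over all kept cells, so its level did not separate the knockout from the blank wounds. The share of transferred DCs in the libraries was not measured. The cells were clustered without the 5 members. 1 cluster met 8 of 8 fibroblast markers and held 1253 fibroblast-like cells, 467, 466 and 320 in the order control DC, Ndrg2-KO DC and blank hydrogel wounds, with 14865536, 12829620 and 9686014 UMIs. In each library at least 93.8% of these cells carried the fibroblast receptor gene Pdgfra and at least 99.6% carried the collagen gene Col3a1. All intervals below are 95% and cover counting error only, so they do not measure the spread between mice.

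Ngfr had 2 UMIs in control DC fibroblasts, 723 in Ndrg2-KO DC fibroblasts and 9 in blank hydrogel fibroblasts, or 0.135 CPM (0.0163 to 0.486), 56.4 CPM (52.3 to 60.6) and 0.929 CPM (0.425 to 1.76). The Ndrg2-KO DC library stood far above the other 2, and blank hydrogel stood above control DC wounds by a log2 ratio of 2.79 (0.52 to 6.04). Its 723 UMIs came from 175 cells, of which the highest held 2.08% of them, and 65 cells had 5 or more UMIs. The 9 UMIs of the blank hydrogel library came from 2 cells. The log2 ratio of Ndrg2-KO DC over control DC wounds was 8.71 (6.85 to 11.76) and over blank hydrogel wounds 5.92 (4.99 to 7.06). Taking fibroblasts by marker genes in place of clusters gave 4.58 over control DC wounds, the same direction at a smaller size, with 529 control DC and 526 Ndrg2-KO DC cells. It turned the ratio of blank hydrogel over control DC wounds to -0.34. The marker rule also took in 27 of the 61 control DC cells of cluster 8, an unnamed mixed cluster described below. Those 61 cells held 31 UMIs of Ngfr, and their part in the changed ratios was not tested.

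Pgr had 1.28 CPM (0.770 to 1.996) in control DC fibroblasts, 41.5 CPM (38.1 to 45.2) in Ndrg2-KO DC fibroblasts and 1.03 CPM (0.495 to 1.90) in blank hydrogel fibroblasts, from 19, 533 and 10 UMIs. The receptor was detected in 16, 156 and 10 cells in the same order. Its log2 ratio over control DC wounds was 5.02 (4.37 to 5.77), and over blank hydrogel wounds 5.33 (4.44 to 6.40).

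Greb1 had 1.41 CPM (0.875 to 2.16), 28.3 CPM (25.5 to 31.4) and 1.96 CPM (1.18 to 3.06) in control DC, Ndrg2-KO DC and blank hydrogel fibroblasts, from 21, 363 and 19 UMIs. The log2 ratio was 4.32 (3.69 to 5.03) over control DC and 3.85 (3.19 to 4.60) over blank hydrogel wounds, the smallest of the 4 raised genes in both comparisons. Most of its positive cells held few copies: of 160 Ndrg2-KO DC cells with a UMI, 71 had 1 and 16 had 5 or more.

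Ptpn5 had 0.807 CPM (0.417 to 1.41), 44.6 CPM (41.0 to 48.4) and 0.723 CPM (0.291 to 1.49) in the same order, from 12, 572 and 7 UMIs. It was detected in 182 of 466 Ndrg2-KO DC fibroblasts, the most of the 4 at full depth. In a random draw to 1000 UMIs per cell it was in 19 cells, close to Pgr (20) and Greb1 (21), and Ngfr was in 32. At 4000 UMIs per cell it was in 74 cells, against 80 for Ngfr, 60 for Pgr and 51 for Greb1. The log2 ratio was 5.79 (4.97 to 6.75) over control DC and 5.95 (4.90 to 7.27) over blank hydrogel wounds.

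Esr1 differed from the other members in its level outside the Ndrg2-KO DC library, with 34.9 CPM (31.9 to 38.0) in control DC, 66.3 CPM (61.9 to 70.9) in Ndrg2-KO DC and 40.2 CPM (36.3 to 44.4) in blank hydrogel wounds. It was detected in 233, 302 and 171 cells, or 49.9%, 64.8% and 53.4%. Its log2 ratio was 0.93 (0.77 to 1.09) over control DC and 0.72 (0.55 to 0.90) over blank hydrogel wounds, below 2-fold in both. Among 6195 genes with at least 200 UMIs, excluding mitochondrial and ribosomal protein genes, Ngfr ranked 2, Ptpn5 7, Pgr 10, Greb1 16 and Esr1 175 by the ratio over control DC wounds.

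**Figure D1:**
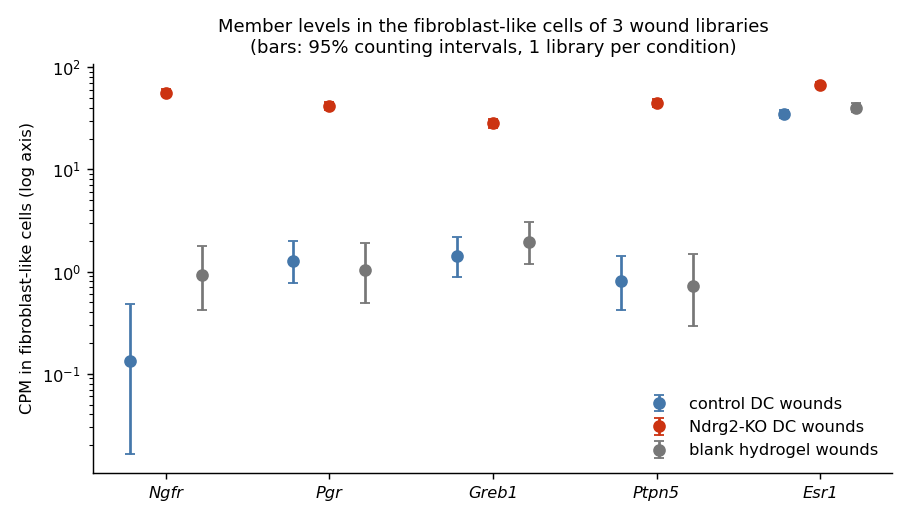
CPM of the 5 members (log axis) in the fibroblast-like cells of the 3 wound libraries, with 95% counting intervals as bars. Ngfr, Pgr, Greb1 and Ptpn5 lie between 28.3 and 56.4 CPM in Ndrg2-KO DC wounds and at or under 1.96 CPM in the other libraries, whereas Esr1 lies between 34.9 and 66.3 CPM in all 3.

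For the whole table, 5.22% of the 11766 genes with at least 20 UMIs were at least 2-fold higher and 2.01% at least 2-fold lower in Ndrg2-KO DC than in control DC fibroblasts. Against blank hydrogel fibroblasts 3.37% were at least 2-fold higher and 1.88% lower. 4 of the 5 members were at least 2-fold higher in both comparisons, which follows from their selection in the first and from the shared Ndrg2-KO DC library in the second. Between blank hydrogel and control DC fibroblasts, where 3.17% of genes were at least 2-fold higher and 1.67% lower, 2 members (Greb1 and Esr1) reached 20 UMIs and neither differed by 2-fold, with log2 ratios of 0.47 (-0.50 to 1.44) and 0.20 (0.01 to 0.40). The gene just ahead of Ngfr in the ranking, Igkc, took 99.8% of its 6268 UMIs from 1 cell, and Ighm, Gzma and Jchain behind it took 98.98% or more of theirs from 1 cell each, whereas no cell held more than 3.38% of the UMIs of a member in the Ndrg2-KO DC fibroblasts. The largest differences downward were those of Hmcn1, Gm15564, Galnt15, Ctla2a and Zim1, with log2 ratios from -2.91 to -2.42.

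Depth was alike between the fibroblasts, with median UMIs of 30110, 26610 and 28111 in control DC, Ndrg2-KO DC and blank hydrogel wounds. After every cell was drawn to 1000 UMIs, at least 1 of the 4 raised genes was detected in 1 of 467 control DC cells (0.214%), 78 of 466 Ndrg2-KO DC cells (16.7%, 13.5 to 20.4) and 2 of 320 blank hydrogel cells (0.625%). At full depth the shares were 9.21%, 57.9% and 9.38%. Neutrophil-like cells, which should lack all 4 genes, served as the background of free RNA: of 2904 such cells in the Ndrg2-KO DC library, with a median of 2929 UMIs, 2 had a UMI of Ngfr, 4 of Pgr, 0 of Greb1 (allowing 0.127%) and 1 of Ptpn5, no share above 0.138%. Markers of some other cell types were more abundant in the Ndrg2-KO DC fibroblasts than in the control DC ones. The summed neutrophil markers reached 564 against 64.9 CPM and erythroid markers 2083 against 179 CPM. Blank hydrogel fibroblasts had 530 and 1020 CPM of these, and the 4 genes were low there. Lower sums were those of adipocyte (167 against 284 CPM), pericyte or smooth muscle (17.4 against 28.05), melanocyte (23.5 against 37.6), Schwann or glial (12.9 against 13.4) and mesothelial markers (0.546 against 0.740). The part of other cell types' RNA in the members' values was not tested.

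Within Ndrg2-KO DC wounds the raised genes were found in the same fibroblasts. Of 466 cells, 196 had none of the 4, 58 had 1, 76 had 2, 81 had 3 and 55 had all 4. If the genes had been detected independently of each other within 4 classes of cells by UMI total, 78.8 cells would have had none, 174.6 would have had 1, 147.7 would have had 2, 56.6 would have had 3 and 8.30 all 4. Cells with none and cells with all 4 were thus more frequent at full depth than under independence, and cells with 1 or 2 less frequent. The sum at 2 or more, 212 cells (45.5%, 40.9 to 50.1), was close to the 212.6 expected, because the excess at 3 and 4 offset the deficit at 2. No control DC cell and 1 blank hydrogel cell had 2 or more.

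**Figure D2:**
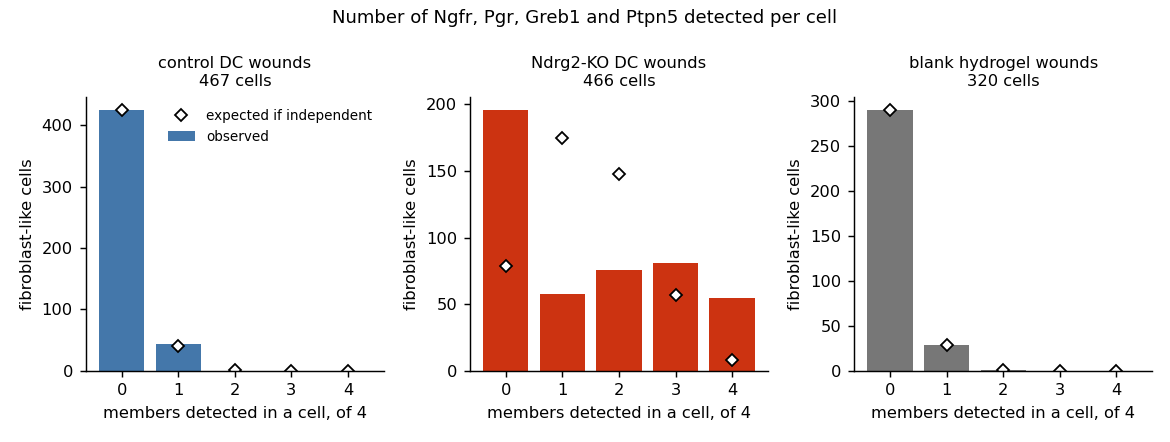
Number of Ngfr, Pgr, Greb1 and Ptpn5 detected per fibroblast-like cell (bars, observed cells) and the number expected if detections were independent within 4 classes of UMI total (diamonds), 1 panel per library. In Ndrg2-KO DC wounds 196 cells have none and 55 have all 4, against 78.8 and 8.30 expected.

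Median UMIs were 27030 in cells with none, 26262 with 1, 25006 with 2, 25364 with 3 and 29871 with all 4. Across these 4 classes the share of cells with 2 or more was 41.9%, 52.6%, 49.1% and 38.5% from the shallowest to the deepest. Cells with all 4 genes did follow depth, with 8, 11, 14 and 22 cells in the same order, of 116 or 117 in each class. Drawn to 4000 UMIs, 57 of 464 cells had exactly 2 of the genes against 42.1 expected, so the deficit at 2 was not seen at that depth. There 71 cells had 2 or more against 47.1 expected, and 14 had 3 or more against 5.03 expected. Without the highest 6% of doublet scores 126 of 420 cells had 3 or more against 60.5 expected.

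All 6 pairs of the raised genes were found together more often than expected in Ndrg2-KO DC fibroblasts. Ngfr and Pgr were both detected in 114 cells against 59.3 expected, and 65.1% of Ngfr-positive cells carried Pgr against 14.4% of the others. Pgr and Ptpn5 shared 117 cells against 60.8, the largest ratio of observed to expected (1.92, as for Ngfr with Pgr). Greb1 and Ptpn5 shared 101 cells against 62.7, the smallest ratio (1.61).

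Esr1 accompanied each of them. In Ndrg2-KO DC fibroblasts it was detected in 84.6% of cells with Ngfr and 52.9% of those without, in 89.1% with Pgr and 52.6% without, in 88.1% with Greb1 and 52.6% without, and in 80.2% with Ptpn5 and 54.9% without. Its level was 26.4 CPM (22.3 to 31.1) in the 196 cells with none of the 4 genes, 54.9 CPM (44.0 to 67.6) in the 58 with 1 and 107 CPM (98.8 to 116) in the 212 with 2 or more. The cells with none lay below the interval of the control DC fibroblasts, and those with 2 or more above the intervals of all 3 libraries. In control DC wounds the 43 cells with 1 of the genes had 49.96 CPM of Esr1 (38.6 to 63.6) and the 424 with none 33.4 CPM (30.4 to 36.6). Blank hydrogel fibroblasts had 74.9 CPM (56.4 to 97.5) in the 29 cells with 1 and 37.4 CPM (33.5 to 41.6) in the 290 with none. The single blank hydrogel cell with 2 of the genes had no UMI of Esr1, nor had the 2 control DC cells with Ngfr, and blank hydrogel cells with Ptpn5 carried Esr1 in 3 of 6 cases, against 53.5% of those without.

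**Figure D3:**
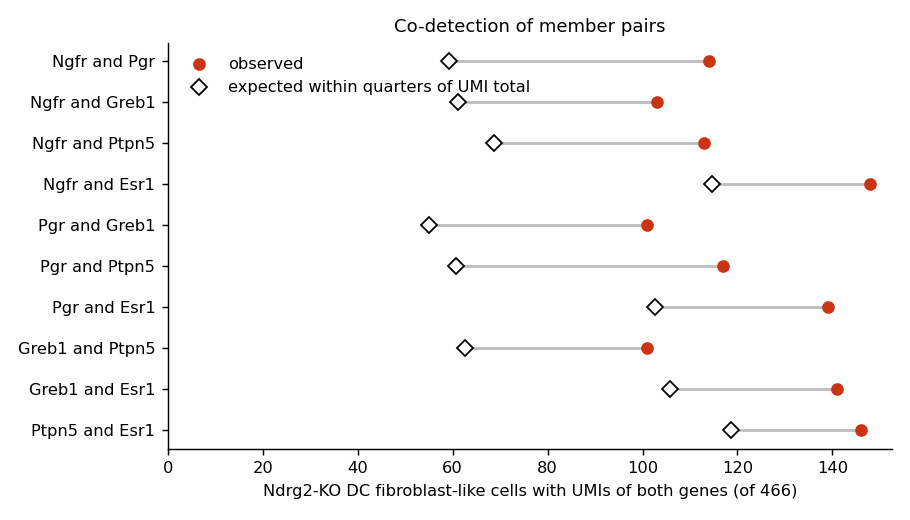
Ndrg2-KO DC fibroblasts in which both genes of a pair were detected (points, observed cells) and the number expected within 4 classes of UMI total (diamonds). Every observed value lies to the right of its expected value, by 1.61 to 1.92 times among the 4 raised genes and by 1.23 to 1.36 times for the pairs with Esr1.

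The fibroblasts were divided once more into 8 sub-clusters, again without the members among the genes used. Sub-cluster 3 held 135 Ndrg2-KO DC cells, 2 control DC cells and no blank hydrogel cell, so it may be that library rather than a kind of cell. In it Ngfr reached 131.9 CPM, Pgr 116.6, Greb1 54.0, Ptpn5 103.8 and Esr1 107.1 CPM in Ndrg2-KO DC wounds, and 121 of the 135 cells had 2 or more of the raised genes. Its leading genes were Celf4, Spon1, Prex2, Tgm2, Col15a1, Cxcl13, Nrcam and Akr1c18. Without it the log2 ratios over control DC wounds were 7.64 for Ngfr, 3.27 for Pgr, 3.69 for Greb1, 4.73 for Ptpn5 and 0.55 for Esr1, an alternative chosen after seeing the data. Over blank hydrogel wounds they were 4.86 for Ngfr, 3.58 for Pgr, 3.22 for Greb1, 4.90 for Ptpn5 and 0.33 for Esr1.

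Sub-cluster 6, led by Cxcl14, Cdh13, Slit2 and Mgp, held cells of each library, 48, 38 and 13 in the order control DC, Ndrg2-KO DC and blank hydrogel wounds. Ngfr had 0.914 CPM (0.0232 to 5.10), 126.6 CPM (104.5 to 152.0) and 31.3 CPM (14.3 to 59.5) there, the last from 9 UMIs in 2 cells. Greb1 had 2.74, 74.9 and 3.48 CPM, and Esr1 34.8, 150.8 and 76.6 CPM. Here 27 of 38 Ndrg2-KO DC cells had 2 or more of the raised genes, against 0 of 48 control DC cells and 0 of 13 blank hydrogel cells. Pgr and Ptpn5 were lower in this sub-cluster than in sub-cluster 3, at 23.1 and 16.5 CPM in Ndrg2-KO DC wounds.

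At the other end, sub-cluster 4, led by Tcim, Tnc, Acta2 and Tpm2, had 3 of 55 Ndrg2-KO DC cells with 2 or more of the genes. Ngfr stood at 0.989 CPM, Pgr at 1.48 CPM, Greb1 at 0 of 55 cells, Ptpn5 at 10.9 CPM and Esr1 at 16.3 CPM. Sub-cluster 7 was led by Cd52, Lcp1, Cd53 and Ptprc, genes of immune cells, and had Ngfr at 43.2 CPM in 46 Ndrg2-KO DC cells. Over the 7 sub-clusters with at least 10 cells in both libraries, the Ndrg2-KO DC value was above the control DC value in 7 for Ngfr, 6 for Pgr, 6 for Greb1, 7 for Ptpn5 and 5 for Esr1. The intervals were apart in 5, 4, 4, 6 and 3 of these. The raised genes were selected on this difference, and all sub-clusters share the same pair of libraries. These counts are therefore a description and no separate check.

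**Figure D4:**
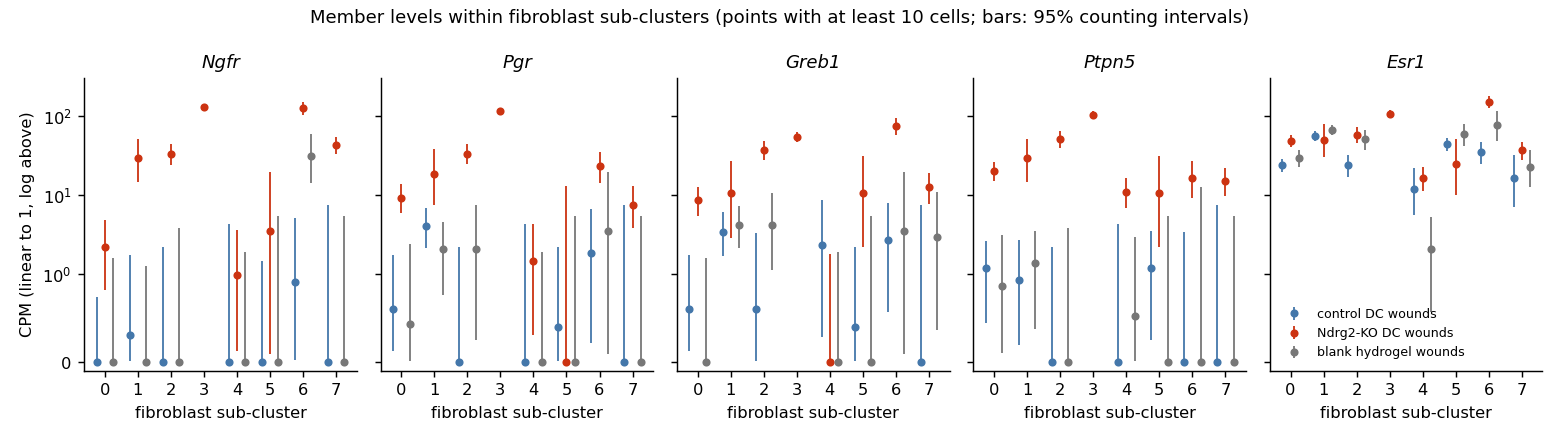
CPM of each member (axis linear to 1, log above) in the fibroblast sub-clusters of the 3 wound libraries, for points with at least 10 cells, with 95% counting intervals. In Ndrg2-KO DC wounds sub-clusters 3 and 6 are highest for Ngfr, at 131.9 and 126.6 CPM, and for Esr1, at 107.1 and 150.8 CPM, whereas sub-cluster 4 is lowest for Ngfr at 0.989 CPM.

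The 212 Ndrg2-KO DC fibroblasts with 2 or more raised genes were set beside the 196 with none, a division made after the values were seen. They lay in different sub-clusters: 121 of the 212 were in sub-cluster 3, and of the 196 there were 61 in sub-cluster 0 and 45 in sub-cluster 4, so that several genes below are leading genes of those sub-clusters. Among the genes with the largest difference in detection, Col15a1, a collagen of basement membranes, was found in 83.0% of the former and 23.5% of the latter, with 43.3% in control DC and 25.3% in blank hydrogel fibroblasts. Prex2, an exchange factor of Rac, was in 58.0% and 4.59%. Ntrk2, the receptor of brain-derived neurotrophic factor and a partner of p75NTR, was in 90.6% and 36.7%. Control DC and blank hydrogel fibroblasts lay between these, at 63.0% and 65.6%. Ldb2, Tgm2, Fxyd6, Spon1, Cxcl13, Akr1c14 and Nrcam made up the rest of the 10 genes with the largest differences upward. Cxcl13 had 269.9 CPM in cells with 2 or more, below the 475.1 CPM of control DC fibroblasts.

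In the opposite direction, Lrrc15, a marker of myofibroblasts, was found in 32.6% of cells with 2 or more and 81.1% of those with none, and the matrix glycoprotein gene Tnc in 10.4% and 51.5%. Sdc1, Epb41l3, Hs6st2, H19, Dkk3, Tcim, Tgfbi and Bckdhb were the other genes of this side. The contractile genes Acta2 and Tagln had 13.9 and 6.93 CPM in cells with 2 or more, against 157.3 and 90.9 CPM in cells with none. Control DC fibroblasts had 39.35 and 34.4 CPM of them, and blank hydrogel fibroblasts 261.4 and 160.9 CPM. Cells with 2 or more and cells with none differed little in depth, with medians of 26532 and 27030 UMIs. Ribosomal protein genes took a median of 17.5% and 14.1% of their UMIs, and Ptprc was found in 10.8% and 15.8% of cells. Their part in these differences was not tested.

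**Figure D5:**
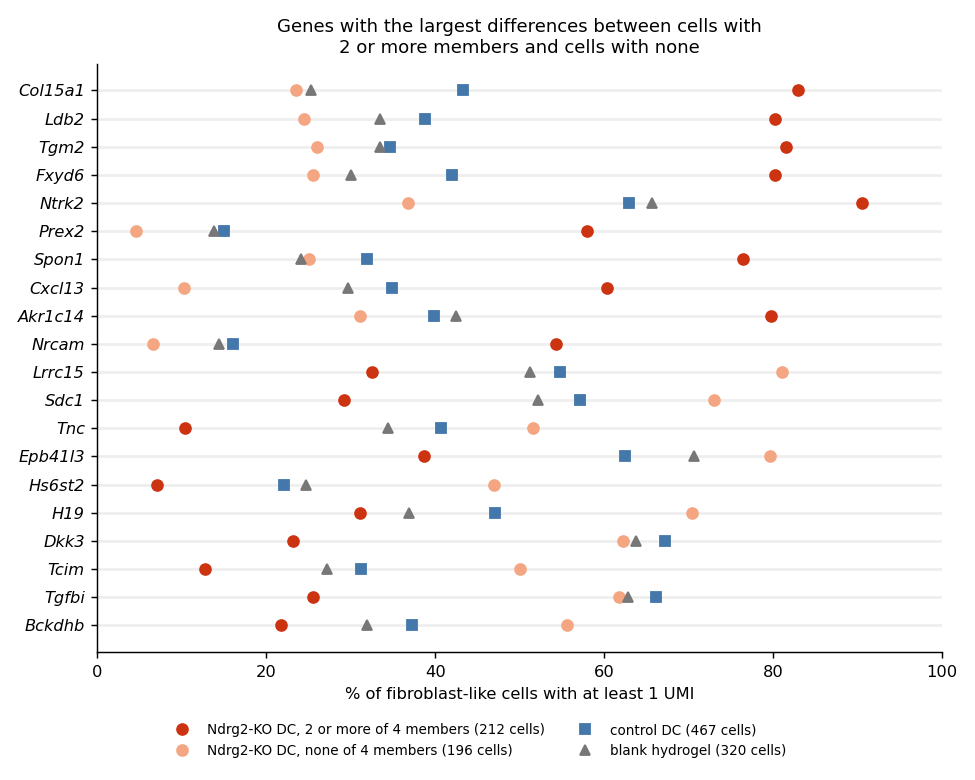
Percent of fibroblasts with a UMI for the genes that differed most between Ndrg2-KO DC cells with 2 or more of the raised genes and those with none, beside all control DC and blank hydrogel fibroblasts. Col15a1 stands at 83.0% against 23.5% and Tnc at 10.4% against 51.5%.

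The lists of related genes were read against the background of 5.22% higher and 2.01% lower given above. Of 7 steroid receptor genes with at least 20 UMIs, none other than Pgr, which was selected on this ratio, was 2-fold higher or lower over control DC wounds. Nr3c1, the glucocorticoid receptor, had a log2 ratio of 0.18 (0.05 to 0.30). Esr2, which encodes oestrogen receptor beta, had no UMI in any fibroblast. Of 12 oestrogen-responsive genes other than the members, 1 was 2-fold higher, the cyclin gene Ccnd1 at 6.05 CPM in control DC, 16.3 CPM in Ndrg2-KO DC and 9.50 CPM in blank hydrogel fibroblasts. None was 2-fold higher over blank hydrogel wounds. The list's median log2 ratio was 0.17 over control DC wounds, beside 0.08 for all genes.

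Progesterone-responsive genes stood on the other side. Of 7 measured, 4 were at least 2-fold lower and none higher, both over control DC and over blank hydrogel wounds, with a median log2 ratio of -1.05 and -1.38. Zbtb16, a zinc finger repressor, had 44.2, 14.5 and 42.7 CPM in control DC, Ndrg2-KO DC and blank hydrogel fibroblasts. Within Ndrg2-KO DC wounds it stood at 25.7 CPM in cells with 2 or more of the raised genes and 3.12 CPM in cells with none. Of the other 3 genes that were lower, Fkbp5 had 19.4 and 12.3 CPM in these cells, Tsc22d3 11.4 and 11.4 CPM, and Tnfsf11 0 and 11 UMIs. Zbtb16 was also a leading gene of sub-cluster 1, which held 135 control DC, 19 Ndrg2-KO DC and 120 blank hydrogel cells, or 28.9%, 4.08% and 37.5% of the fibroblasts, so the libraries drew on different sub-clusters. The part of that in the list's values was not tested. Tsc22d3 (GILZ) had 42.3, 11.9 and 39.4 CPM, and Fkbp5, a chaperone of steroid receptors, 34.1, 16.4 and 42.7 CPM. These 3 genes are also well known to be induced by glucocorticoids. Hsd11b1, the enzyme that regenerates active glucocorticoid, was the 1 of 6 measured steroid synthesis genes 2-fold lower, with 34.0, 11.1 and 29.3 CPM. Tnfsf11, the fourth gene, rested on 38, 13 and 68 UMIs.

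Among the neurotrophin genes, the ligand gene Bdnf had 2.42 CPM in control DC, 3.12 CPM in Ndrg2-KO DC and 1.86 CPM in blank hydrogel fibroblasts, from 36, 40 and 18 UMIs. Of 10 measured receptors and partners, Lingo1 was the 1 gene besides Ngfr, which was selected on this ratio, at 2-fold or more over control DC wounds, from 9 and 24 UMIs, and it was not counted at a minimum of 50 UMIs. Ntrk2 had 77.0, 104.3 and 87.8 CPM, with a log2 ratio of 0.44 (0.32 to 0.55) over control DC wounds. Of the relatives and substrates of Ptpn5, 0 of 5 measured differed by 2-fold in either direction. Steroid receptor coregulators had 1 of 8 lower (Gata3, from 31 and 7 UMIs). Fibroblast state genes had 1 of 17 higher (Thbs4) and 3 lower (Postn, Lepr and Coch) over control DC wounds, and 3 of 16 higher (Dlk1, Cxcl14 and Thbs4) and 3 lower (Crabp1, Acta2 and Tagln) over blank hydrogel wounds. Lepr, at -1.17 and 0.72 on the log2 scale, and Acta2, at 0.93 and -1.81, had opposite signs in the 2 comparisons. Thbs4 was carried by few cells, with a UMI in 9.64% of control DC and 7.51% of Ndrg2-KO DC fibroblasts. Among 7 RNA quality and stress genes Lars2 was lower, with a log2 ratio of -1.40 (-1.44 to -1.36) over control DC and -1.21 over blank hydrogel wounds, and its part in the members' values was not tested.

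Outside the fibroblasts the members had few transcripts. Over the 3 wound libraries fibroblast-like cells held 82.5% of the UMIs of Ngfr, 95.4% of Pgr, 97.8% of Greb1, 92.9% of Ptpn5 and 86.0% of Esr1. The Ndrg2-KO DC library gave most of these UMIs for the 4 raised genes: in control DC and blank hydrogel wounds the share was 70.6% and 46.7% for Ptpn5, from 17 and 15 UMIs, and 5.26% and 32.1% for Ngfr, from 38 and 28 UMIs. Esr1 was also found in macrophage or monocyte-like cells, with 9.26, 7.31 and 7.55 CPM in control DC, Ndrg2-KO DC and blank hydrogel wounds and a UMI in 11.3%, 9.44% and 9.07% of cells, above the 0.218% to 0.322% of neutrophil-like cells, whose median depth was between 2929 and 3360 UMIs against 12414 to 13615.

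Ngfr was placed differently in control DC wounds, where fibroblasts held 2 of 38 UMIs. There 31 UMIs lay in 3 of the 4 cells outside the fibroblast cluster that carried at least 3 Schwann or glial markers (446.4 CPM over the 4), and 1 cell held 20 of them. Such cells numbered 5 in Ndrg2-KO DC wounds, with 25 UMIs of Ngfr (590.8 CPM), and 4 in blank hydrogel wounds, with 5 UMIs (39.0 CPM). They held no UMI of Pgr, Ptpn5 or Esr1. In the fibroblasts themselves the 7 Schwann or glial markers summed to 13.4, 12.9 and 13.1 CPM, and Sox10, which defines that lineage, was at 0.135, 0 and 0.103 CPM. Within Ndrg2-KO DC fibroblasts S100b, another marker of this list, had 11.8 CPM in cells with 2 or more of the raised genes and 5.13 CPM in cells with none, whereas Sox10 had no UMI in either. The part of Schwann or glial RNA in the Ngfr values was not tested.

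Cluster 8, whose leading genes belonged to several cell types (muscle, pericyte and Schwann cells among them) and which stayed unnamed, held members besides Ngfr in Ndrg2-KO DC wounds. Its 112 cells there had 26.5 CPM of Ngfr, 11.05 CPM each of Pgr and Ptpn5 and 15.5 CPM of Esr1, from 12, 5, 5 and 7 UMIs. In control DC and blank hydrogel wounds it had no UMI of Pgr or Ptpn5, and 4.16 and 5.97 CPM of Esr1. At least 3 fibroblast markers and no Ptprc were carried by 39 of the 112 Ndrg2-KO DC cells. In control DC and blank hydrogel wounds 27 of 61 and 38 of 87 cells of the cluster did so. Which of these cells held the members was not tested.

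A cluster of dividing cells, led by Ube2c, Birc5 and Anln, held 38 Ndrg2-KO DC cells with 77 UMIs of Ngfr, 16 of Pgr, 14 of Ptpn5 and 27 of Esr1. Of these 38 cells 37 carried at least 3 fibroblast markers and no Ptprc, and fibroblast was the 1 marker list the cluster met, so they may be counted with the fibroblasts. Its Ngfr came from 3 cells, 1 of which had 35 UMIs. The 13 control DC and 18 blank hydrogel cells of this cluster had none of Ngfr, Pgr or Ptpn5, and 8 and 10 UMIs of Esr1. Its Esr1 level was 12.4 CPM (5.34 to 24.4) in control DC, 15.9 CPM (10.5 to 23.1) in Ndrg2-KO DC and 8.997 CPM (4.3 to 16.55) in blank hydrogel wounds. Only in the Ndrg2-KO DC library did the interval lie above that of the macrophage or monocyte-like cells (5.62 to 9.4 CPM). Ptpn5 also had 8 UMIs in 4 of 42 Ndrg2-KO DC cells of a cluster led by keratin genes, and 4, 2 and 5 UMIs in a cluster of T and mast cell genes.

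Xist, which is transcribed from the inactive X chromosome, had 517.0 CPM in control DC, 431.1 CPM in Ndrg2-KO DC and 502.8 CPM in blank hydrogel fibroblasts, lowest in the Ndrg2-KO DC library with a log2 ratio of -0.26 (-0.31 to -0.21) over control DC wounds. It was detected in 460 of 467, 458 of 466 and 315 of 320 fibroblasts, and the 4 Y-linked genes searched had no UMI in fibroblasts of any library. Over all kept cells they had 1, 3 and 2 UMIs. The methods name both sexes, and no fibroblast here carried a Y-linked UMI.

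Genes were ranked by the correlation of their log CPM with each member over 29 profiles (cell classes of at least 50 cells in each library), which share libraries and depth. The raised genes were selected on the Ndrg2-KO DC fibroblast profile, and Pgr, Greb1 and Ptpn5 were highest in it. A high r with them may therefore restate that selection, and the ranking is no separate check on it. The most alike to Ngfr was Lypd1 (r = 0.92), followed by Hspb2, Prex2, Apold1 and Gucy1a1. For Pgr it was Gm12248 (r = 0.95), which had 0, 13.4 and 0 CPM in control DC, Ndrg2-KO DC and blank hydrogel fibroblasts, followed by Angpt4, Adamtsl2, Hcn4 and Nexmif. For Greb1 it was Nexmif (r = 0.93), with 1.68, 11.2 and 0.723 CPM, followed by Lypd1, 1500015O10Rik, Adamts19 and Rab40b. For Ptpn5 the likeness was weaker, with Adamtsl2 (r = 0.82) ahead of Pgr, Gm12248, Nxnl2 and Itga2. The genes most alike to Esr1 were Nipa1 (r = 0.89), Lpar1, Armcx3, Cfb and Tmem150a, of which Lpar1 had 158.8, 169.7 and 138.9 CPM in fibroblasts. These rankings depended on which classes entered: with classes of at least 20 cells, 2 of the 5 genes were shared for Ngfr, 3 each for Pgr, Greb1 and Ptpn5, and 1 for Esr1. Gm12248 then left the 5 of Pgr, and the genes ranked first were Lypd1 for Ngfr and Greb1, Angpt4 for Pgr, Msl3l2 for Ptpn5 and Ifi205 for Esr1.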

How the data were processed

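The authors deposited unnormalized UMI counts per gene and barcode of 6 droplet libraries (10x, 3′ chemistry), 1 per condition. The matrix headers of the wound libraries name Cell Ranger 6.0.0 and those of the DC cultures 3.1.0. The submitters' processing notes list mm9 and Seurat 3.1.1, whereas the methods name mm10, so the build was not settled and coordinates here are those of GENCODE M21 and RefSeq. Counts were filtered as described, clustered with Seurat 5.3.0 (R 4.3.3; 2000 variable genes without the members, 15 components, resolution 0.5), and summed per library and cluster with Python 3.11.15. Naming a cluster took 3 or more markers of 1 type, each at 50 CPM and 2-fold above the remaining cells. Doublets were kept, since the automatic calls marked too few cells, and the highest 6% of Scrublet scores (scanpy 1.11.5) were left out as an alternative.

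With 1 library per condition no test was made. Intervals are exact (Poisson for CPM, conditional binomial for ratios, Clopper-Pearson for shares). Genes with at least 20 UMIs in a comparison were counted as higher or lower at 2-fold. Named genes were the members, the listed genes, the 5 genes most alike to each member, and the 5 largest differences in each direction among genes with at least 200 UMIs. The members and lists were chosen with earlier results of these data known. The sub-clusters, the cells with 2 or more members and the 10 largest differences between them were chosen after values were seen. The sums and co-detection were tested on simulated data. Some listed genes are not reported here.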

Additional observations from a re-analysis of the deposited data

Results flagged for a closer look

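The cultured DCs enter no comparison of the wounds, and 2 members had transcripts there above the level of the untreated culture. Greb1 had 1.288 CPM (1.109 to 1.488) in the Ndrg2-KO DC culture, from 185 UMIs in 7969 cells, against 0.332 CPM (0.241 to 0.446) in the untreated and 0.498 CPM (0.378 to 0.644) in the vitamin D3 culture. Esr1 had 10.65 CPM (10.12 to 11.19) in the Ndrg2-KO DC culture, against 8.25 CPM (7.77 to 8.76) and 7.55 CPM (7.06 to 8.06). Pgr went the other way, with 0.0696 CPM in the Ndrg2-KO DC culture and 0.694 CPM in the untreated one. Each culture was 1 library, so the differences have no replicate check. The Ndrg2-KO DCs were nucleofected and the comparison culture is labelled untreated, so editing and nucleofection cannot be told apart. The authors also found most cells of these cultures in different clusters. Ndrg2 itself had 4.62 CPM in the untreated, 1.42 in the vitamin D3 and 0.884 in the Ndrg2-KO DC culture.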

How the results depend on the processing

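With 1 library per condition no replicate could be left out. No paired analysis was possible because each condition had a single library and no result came from a test. Over 12 alternatives the log2 ratio over control DC wounds stayed positive for all 5 members, from 4.58 to 8.78 for Ngfr, 3.27 to 5.21 for Pgr, 3.69 to 4.39 for Greb1, 4.73 to 5.85 for Ptpn5 and 0.55 to 0.99 for Esr1. The lowest Ngfr value, 4.58, came from taking fibroblasts by marker genes, which took in 529, 526 and 387 cells. Over blank hydrogel wounds all 5 ratios stayed positive too, but Ngfr went from 5.92 to 4.93 by marker genes and 4.86 without sub-cluster 3, Pgr from 5.33 to 3.58, Ptpn5 from 5.95 to 4.90 and Esr1 from 0.72 to 0.33 without it. The setting by marker genes also turned the Ngfr ratio of blank hydrogel over control DC wounds from 2.79 to -0.34. Leaving out fibroblast sub-cluster 3, chosen after seeing the data, gave the lowest values of the others, 3.27 for Pgr, 3.69 for Greb1, 4.73 for Ptpn5 and 0.55 for Esr1. Detection depended on depth: at least 1 of the 4 raised genes was found in 16.7% of Ndrg2-KO DC fibroblasts at 1000 UMIs, 38.2% at 4000 and 57.9% at full depth, and 2 or more in 45.5% at full depth and 15.3% at 4000. The 614 genes 2-fold higher over control DC wounds became 367 with at least 50 UMIs and 1592 at 1.5-fold, and the 236 lower became 118 and 670, as fewer genes or a smaller fold were counted. In a single neutrophil-like cell, at a median of 2929 to 3360 UMIs, a low level of a member could go undetected. Counting intervals do not hold the spread between mice, which 1 library per condition cannot show.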
